A study of Homo sapiens with 12 samples.

Results

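The EGF receptor family and its ligands were followed as 10 genes: the receptors EGFR, ERBB2 and ERBB3, the ligands HBEGF, AREG, EREG, TGFA, BTC and NRG1, and the receptor inhibitor ERRFI1. They were taken by symbol from the expression table, where they fill 11 of 24331 rows, because AREG has 2 rows. A mean FPKM of at least 1 was reached by 8 of the 10 members. ERBB3 and BTC lay below it and were described without a test in the main comparison.

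Receptors of this family are tyrosine kinases that pair with each other when a ligand binds, and their best known outputs run through Ras and the ERK kinases and through PI3-kinase. The ligands are made as membrane-anchored precursors, and metalloproteases, ADAM17 above all, release them. PMA, a phorbol ester that activates protein kinase C, is a classical trigger of this shedding and of the transcription of several ligand genes. ERRFI1, also called MIG6, binds the kinase domains of the receptors and blocks them, and its transcription rises with ERK activity, which makes it a feedback inhibitor.

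RNA-sequencing was performed in MDA-MB-231 cells, a human triple-negative breast cancer line, stimulated with PMA and Ionomycin, a calcium ionophore, for 0, 6 or 24 h. WT cells carried the unedited ETS1 promoter. ΔCRE cells, labelled KO, were made by CRISPR deletion of the NFAT and NF-κB sites in the core regulatory element of that promoter, and the coding part of ETS1 was left in place. All 6 groups had 2 biological replicates, 12 libraries in all, and unstimulated cells of each genotype were the 0 h controls. The sources used here do not give how many deleted clones the ΔCRE libraries came from, so the deletion and a property of a clone cannot be told apart. In a bulk library, fewer cells carrying a transcript and less of it per cell cannot be told apart either.

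ETS1, whose promoter was edited, was 24.0 and 23.7 FPKM in WT and 16.5 FPKM in ΔCRE replicate 2 at 0 h, 139 and 145 FPKM in WT and 62.8 and 62.2 FPKM in ΔCRE at 6 h, and 36.2 and 39.7 FPKM in WT and 29.3 and 30.7 FPKM in ΔCRE at 24 h. FPKM counts fragments per length of transcript, scaled to all those mapped in a library, so that levels can be compared between genes, but the depth of a library cannot be read from it. Summed FPKM ranged from 566255 to 651080 over 11 libraries, whereas ΔCRE 0 h replicate 1, as labelled, summed to 1423335. That library held 9 of 10 gut epithelium markers above all others (summed level 2313 FPKM, against 1.497 to 2.67 in the other 11), and EPCAM at 1139 FPKM against 2.02 to 3.38. It was also above all others in 5 of 5 immune markers (summed level 386 FPKM against 0.300 to 0.783), 3 of 3 fibroblast markers (16.3 against 0 to 0.0635) and 5 of 8 luminal breast markers (3051 against 39.1 to 114). Of 4 genes that MDA-MB-231 cells lack or hold at low levels, ESR1 and PGR were at or near 0 in all 12 libraries, but CDH1 was 52.3 FPKM in that library against at most 0.0318 in the others, and EPCAM was raised as given above. The 5 markers of MDA-MB-231 summed to 5041 FPKM there, within the 3467 to 5150 of the other libraries, with VIM below them (1199.5 against 1543 to 2539), SPARC (44.8 against 5.56 to 12.6) and LGALS1 (3669 against 1708 to 3087) above them, and CD44 and AXL within their range. The library labelled ΔCRE 0 h replicate 1 was therefore kept out of the main comparisons and its values are given apart, and at 0 h the ΔCRE group is replicate 2 alone, which was assumed to vary like the other groups.

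RefSeq promoter sequences are shown for 4 of the members whose level differed between the genotypes at some time, to be read beside their values. They cover 250 bases before and 50 after the annotated start on GRCh38.p14, which is another build than the hg19 of the expression table. Windows of 8 of the 10 members were searched. NRG1, whose level also differed between the genotypes at 6 h, was left out of that search, and ERBB3 is not among the 8 either. Capitals mark the AP-1 motif TGANTCA, the cAMP response element palindrome TGACGTCA, the ETS motif CCGGAA and the TATA motif TATAAA, searched on both strands, of which no matches overlapped.
EREG, chr4:74364895-74365194, plus strand: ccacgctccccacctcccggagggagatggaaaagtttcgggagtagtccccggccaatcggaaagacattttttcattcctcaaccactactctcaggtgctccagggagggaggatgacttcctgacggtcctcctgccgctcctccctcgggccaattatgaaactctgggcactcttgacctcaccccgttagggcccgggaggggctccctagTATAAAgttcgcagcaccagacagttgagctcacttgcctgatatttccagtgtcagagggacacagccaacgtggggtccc
AREG, chr4:74444886-74445185, plus strand: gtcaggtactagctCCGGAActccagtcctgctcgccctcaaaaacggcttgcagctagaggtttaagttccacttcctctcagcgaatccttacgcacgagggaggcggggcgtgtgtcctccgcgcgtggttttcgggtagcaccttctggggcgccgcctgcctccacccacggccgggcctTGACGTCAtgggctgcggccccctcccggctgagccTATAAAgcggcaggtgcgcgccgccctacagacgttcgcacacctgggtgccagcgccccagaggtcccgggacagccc
HBEGF, chr5:140346554-140346853, minus strand: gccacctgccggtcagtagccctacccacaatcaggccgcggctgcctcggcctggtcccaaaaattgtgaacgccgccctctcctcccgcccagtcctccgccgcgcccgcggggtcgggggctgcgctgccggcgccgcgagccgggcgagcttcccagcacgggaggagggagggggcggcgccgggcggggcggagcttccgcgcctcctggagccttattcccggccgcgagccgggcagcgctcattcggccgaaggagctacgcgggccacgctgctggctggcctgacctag
ERRFI1, chr1:8026260-8026559, minus strand: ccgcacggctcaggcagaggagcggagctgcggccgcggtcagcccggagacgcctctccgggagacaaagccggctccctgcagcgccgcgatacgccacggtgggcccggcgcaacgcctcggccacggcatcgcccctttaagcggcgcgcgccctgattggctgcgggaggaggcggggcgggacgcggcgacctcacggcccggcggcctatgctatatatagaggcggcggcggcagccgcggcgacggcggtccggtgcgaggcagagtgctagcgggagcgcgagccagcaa
With positions counted from the annotated start, the palindrome lies at −65 in the AREG window, and 1.85% of 35116 promoter windows of this length hold it. EREG and AREG each hold TATAAA, found in 11.5% of all windows, with its first base at −32 and −29. CCGGAA, in 17.2% of windows, is in the AREG window at −236, and TGANTCA, in 7.71% of windows, is in none of these 4. HBEGF and ERRFI1 hold none of these 4 strings of letters, although ERRFI1 holds tatatata, which the search for TATAAA does not match. The HBEGF and ERRFI1 windows are 75.0% and 74.7% G or C, against 57.7% for EREG and 66.3% for AREG. These matches describe these exact letters only. Other forms of each motif were not searched, so a window without a match may still hold one.

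Stimulation for 6 h raised 4 of the 6 ligands and EGFR, lowered TGFA and ERBB2, and raised the inhibitor ERRFI1, which had the largest log2 fold change among the members. In WT cells all 8 tested members passed the test at 6 h against 0 h (limma, adjusted p under 0.05), 6 higher and 2 lower, where 44.4% of all 11256 tested features passed, 23.3% higher and 21.1% lower. The median log2 fold change of the members was 1.11, against −0.0014 over all features. With values rescaled to TPM, 1894 features were higher and 3513 lower in WT at 6 h, against 2620 and 2373 here, and the same 8 members passed in the same directions. ΔCRE cells gave the same count, 8 of 8 with 6 higher and 2 lower, where 29.8% of features passed, 1895 higher and 1464 lower, or 1201 and 2578 in TPM. Fold changes here are on the scale of log2(FPKM + 1), which understates changes at low levels.

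**Figure D1:**
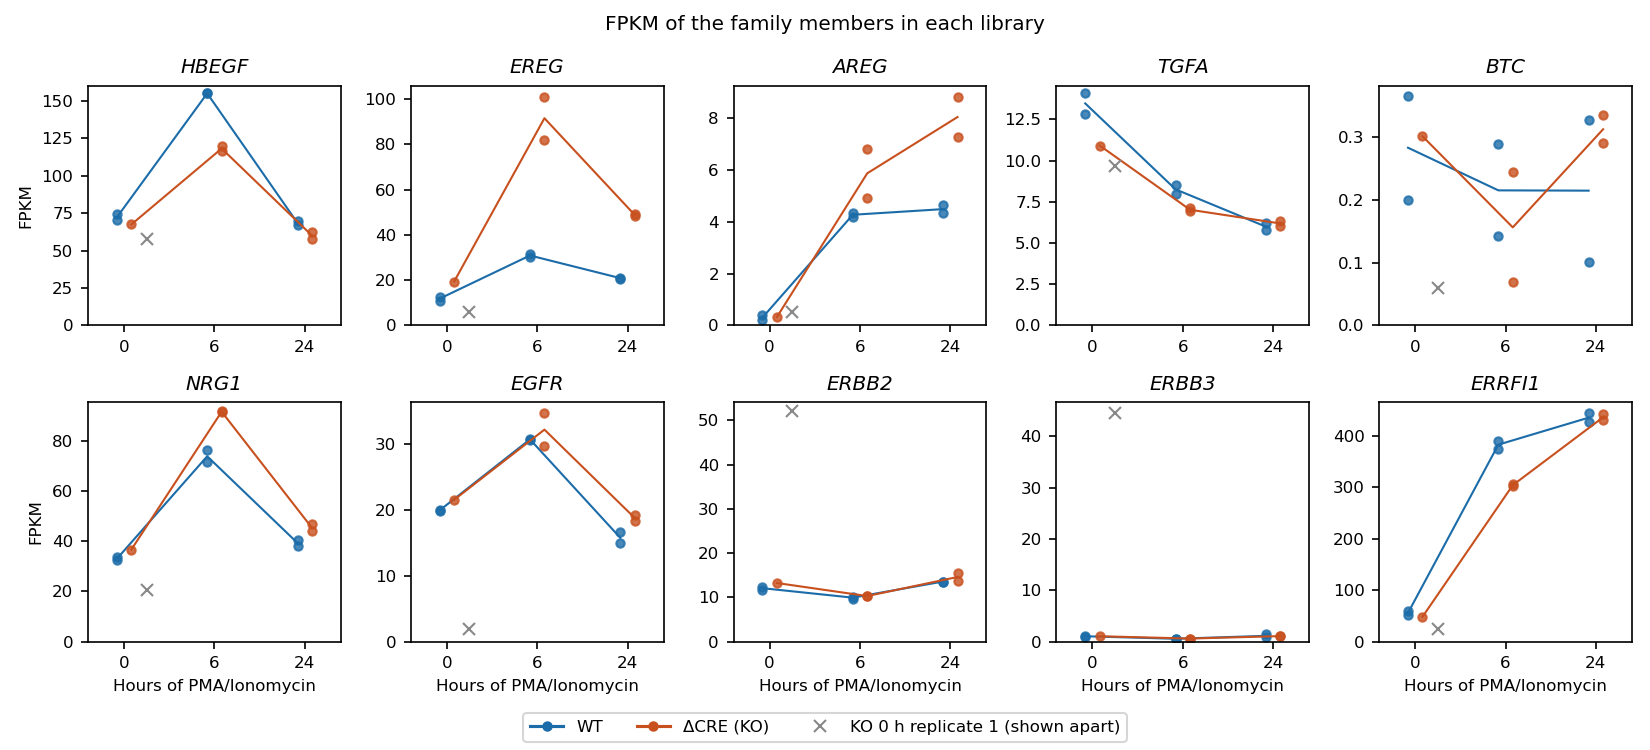
FPKM (vertical axes, each from 0) of the 10 members in each library against hours of PMA/Ionomycin (horizontal axis, evenly spaced). Points are libraries, lines join group means, blue is WT, orange is ΔCRE, and the grey cross is the library labelled KO 0 h replicate 1. EREG in ΔCRE reached 82.1 and 101 FPKM at 6 h, above every WT library, and ERBB2 and ERBB3 were far higher in the grey cross than anywhere else.

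HBEGF, the heparin-binding ligand of EGFR and ERBB4, was the most abundant ligand in every library. WT cells held 74.2 and 70.4 FPKM at 0 h, 155 and 155 FPKM at 6 h, and 69.6 and 67.4 FPKM at 24 h. In ΔCRE cells HBEGF was 67.5 FPKM at 0 h, 116.7 and 119.8 FPKM at 6 h, and 62.4 and 57.9 FPKM at 24 h. It thus peaked at 6 h in both genotypes, and no 6 h library overlapped a library of another time. The log2 fold change at 6 h against 0 h was 1.09 in WT (95% interval 0.97 to 1.22, adjusted p = 1.8e-06, limma) and 0.80 in ΔCRE (0.65 to 0.95, adjusted p = 6.4e-05, limma). At 24 h the WT mean was 0.948 times the 0 h mean, a difference that did not pass the test (adjusted p = 0.267, limma).

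NRG1, the neuregulin that binds ERBB3 and ERBB4, followed the same course. Its level in WT was 33.6 and 32.4 FPKM at 0 h, 71.5 and 76.3 FPKM at 6 h, and 40.4 and 38.2 FPKM at 24 h, and in ΔCRE it was 36.7 FPKM, then 92.0 and 91.4 FPKM, then 46.7 and 44.03 FPKM. The 6 h libraries were the highest of each genotype, without overlap. The rise at 6 h was 1.14 on the log2 scale in WT (0.057 standard error, adjusted p = 1.8e-06) and 1.30 in ΔCRE (0.070 standard error, adjusted p = 4.2e-06, limma). NRG1 stayed above its 0 h level at 24 h in WT (log2 fold change 0.24, adjusted p = 0.0070, limma). That call was lost without WT 24 h replicate 1 (log2 fold change 0.21, adjusted p = 0.054).

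EREG, epiregulin, a ligand of EGFR and ERBB4, was the ligand in which the genotypes differed most. WT cells had 10.99 and 12.7 FPKM at 0 h, 31.8 and 30.1 FPKM at 6 h, and 20.7 and 21.2 FPKM at 24 h. ΔCRE cells had 19.4 FPKM at 0 h, 82.1 and 101 FPKM at 6 h, and 49.4 and 48.2 FPKM at 24 h. Every ΔCRE library of the main comparisons was above both WT libraries of its time. The lowest ΔCRE library at 24 h was above the highest WT library at 6 h. The ratio of the 6 h mean to the 0 h mean was 2.61 in WT and 4.72 in ΔCRE. On the log2 scale the rise was 1.31 in WT (1.09 to 1.54, adjusted p = 2.1e-05, limma) and 2.17 in ΔCRE (1.89 to 2.45, adjusted p = 5.5e-06, limma).

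AREG, amphiregulin, a ligand of EGFR, started near 0 and showed the largest ratio of means among the members. It was 0.216 and 0.395 FPKM in WT at 0 h, 4.36 and 4.19 FPKM at 6 h, and 4.65 and 4.34 FPKM at 24 h. The ΔCRE values were 0.326 FPKM at 0 h, 6.81 and 4.94 FPKM at 6 h, and 8.82 and 7.28 FPKM at 24 h. The means at 6 h were 14.0 times the 0 h mean in WT and 18.1 times the 0 h value in ΔCRE, although the 0 h values are so low that these ratios are imprecise. AREG rose by 2.02 on the log2 scale in WT (adjusted p = 1.2e-05) and by 2.36 in ΔCRE (adjusted p = 2.7e-05, limma). Unlike HBEGF, NRG1 and EREG, it had not fallen by 24 h, with libraries at 6 and 24 h that overlapped in WT. From 6 to 24 h the ΔCRE libraries rose by 0.40 (adjusted p = 0.042, limma). That call was lost in 6 of the 11 fits leaving out 1 library, those without any 1 of the 4 WT libraries of 6 and 24 h, without ΔCRE 6 h replicate 2 (0.21, adjusted p = 0.255) or without ΔCRE 24 h replicate 1 (0.28, adjusted p = 0.223), and also with a pseudocount of 0.1, without the filter and with the groups compared alone (adjusted p = 0.119, 0.084 and 0.108). The second AREG row, at the near-identical copy named AREGB in the annotation, is listed at 0 in all 12 libraries. How reads that match both copies were assigned is not given in the sources used here.

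TGFA, the ligand TGF-alpha of EGFR, moved the other way. In WT it was 12.8 and 14.1 FPKM at 0 h, 8.53 and 7.98 FPKM at 6 h, and 5.77 and 6.22 FPKM at 24 h, falling at each step without overlap. In ΔCRE cells it was 10.9 FPKM, then 6.93 and 7.11 FPKM, then 6.33 and 6.05 FPKM. It fell by 0.64 on the log2 scale at 6 h in WT (adjusted p = 1.7e-04) and by 0.57 in ΔCRE (adjusted p = 0.0016, limma). BTC, betacellulin, was between 0.0685 and 0.366 FPKM in the 11 libraries. Its groups overlapped in WT at all times, and a fit without the filter called it in no comparison.

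EGFR, the receptor of most of these ligands, rose and fell with HBEGF and NRG1. Its WT levels were 19.8 and 20.0 FPKM at 0 h, 30.8 and 30.6 FPKM at 6 h, and 14.9 and 16.6 FPKM at 24 h, and its ΔCRE levels were 21.5 FPKM, then 34.7 and 29.6 FPKM, then 18.3 and 19.3 FPKM. The 6 h libraries were the highest and the 24 h libraries the lowest in both genotypes. The rise at 6 h was 0.60 on the log2 scale in WT (adjusted p = 5.5e-04) and 0.55 in ΔCRE (adjusted p = 0.0040, limma). At 24 h in WT, EGFR lay under its 0 h level (log2 fold change −0.32, adjusted p = 0.0099, limma), a call lost without WT 24 h replicate 1 (−0.25, adjusted p = 0.076).

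ERBB2, the receptor with no known ligand of its own, dipped at 6 h, opposite to EGFR. It was 12.4 and 11.8 FPKM at 0 h, 10.2 and 9.68 FPKM at 6 h, and 13.6 and 13.6 FPKM at 24 h in WT, and 13.2 FPKM, 10.3 and 10.3 FPKM, and 15.4 and 13.8 FPKM in ΔCRE. The 6 h libraries were the lowest in both genotypes. The change at 6 h was −0.26 in WT (adjusted p = 0.013) and −0.33 in ΔCRE (adjusted p = 0.015, limma). The WT call was lost without WT 0 h replicate 1 and without WT 6 h replicate 2 (−0.22 in both, adjusted p = 0.061 and 0.081), and with the groups compared alone (adjusted p = 0.054). From 6 to 24 h ERBB2 rose by 0.42 in WT (adjusted p = 0.0012) and by 0.46 in ΔCRE (adjusted p = 6.2e-04, limma).

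ERBB3, the neuregulin receptor with a weak kinase, stayed near 1 FPKM. WT libraries held 1.09 and 0.985 FPKM at 0 h, 0.528 and 0.573 FPKM at 6 h, and 1.39 and 0.851 FPKM at 24 h, and ΔCRE libraries 1.04 FPKM, then 0.591 and 0.591 FPKM, then 1.10 and 1.03 FPKM. The 6 h libraries were the lowest in both genotypes, as for ERBB2. Without the filter on low values, the change at 6 h in WT was −0.40 (adjusted p = 0.036, limma). In ΔCRE it was −0.36, with 1 library at 0 h, and did not pass. The later rise was 0.44 in WT (adjusted p = 0.023) and 0.38 in ΔCRE (adjusted p = 0.037, limma). ERBB4, the fourth receptor, was at most 0.0305 FPKM in any library.

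ERRFI1, the inhibitor, rose steeply and stayed high. Its level was 52.1 and 59.5 FPKM at 0 h in WT, 375 and 391 FPKM at 6 h, and 426 and 445 FPKM at 24 h. ΔCRE cells held 48.1 FPKM, then 303 and 306 FPKM, then 431 and 442 FPKM. In each genotype the times did not overlap, and from 6 h on ERRFI1 was the most abundant of the 10 members in every library. The log2 fold change at 6 h was 2.76 in WT (2.61 to 2.91, adjusted p = 1.7e-08) and 2.64 in ΔCRE (2.45 to 2.82, adjusted p = 1.2e-07, limma). The further rise to 24 h was 0.18 in WT (adjusted p = 0.048) and 0.52 in ΔCRE (adjusted p = 3.6e-04, limma), and the WT call was lost without any 1 of the 8 libraries of 6 and 24 h (log2 fold change 0.15 to 0.22, adjusted p from 0.064 to 0.197), without the filter and without trend (adjusted p = 0.067 in both).

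**Figure D2:**
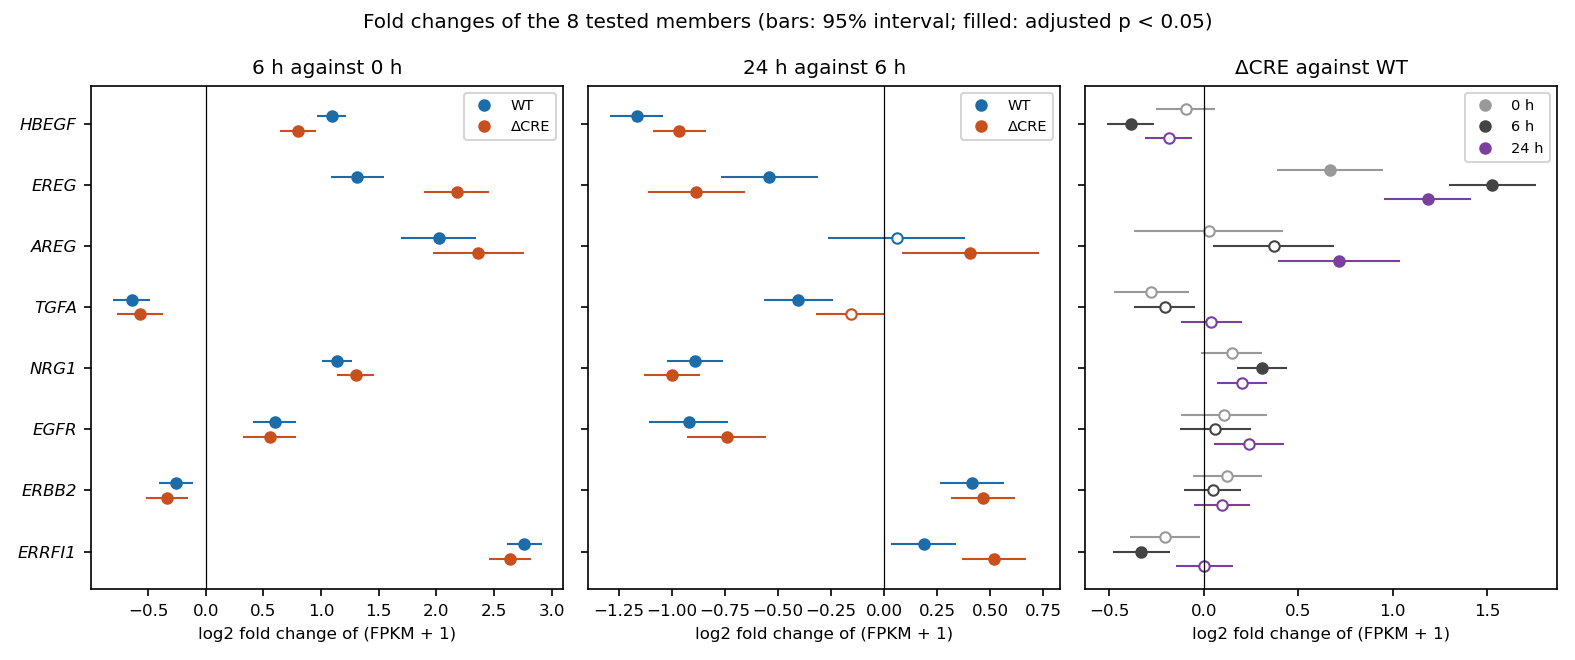
Log2 fold change of (FPKM + 1) (horizontal axes) of the 8 tested members for 6 h against 0 h and 24 h against 6 h in WT (blue) and ΔCRE (orange), and for ΔCRE against WT at 0, 6 and 24 h (light grey, dark grey and purple). Bars are 95% intervals from limma, filled points passed an adjusted p of 0.05, and EREG stands furthest to the right in the comparison of genotypes.

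Across the later steps, 6 of 8 members passed in WT at 24 h against 0 h, where 54.6% of features did, and the exceptions were ERBB2 (log2 fold change 0.16, adjusted p = 0.072) and HBEGF. From 6 to 24 h, 7 of 8 passed in WT, all but AREG, where 46.8% of features did, and 7 of 8 in ΔCRE, all but TGFA, where 49.6% did. In TPM the split of higher and lower features turned from 2303 and 2964 to 3208 and 1780 in WT and from 2489 and 3097 to 3219 and 2082 in ΔCRE. HBEGF, NRG1, EREG and EGFR fell in that interval in both genotypes, HBEGF by 1.17 and NRG1 by 0.89 on the log2 scale in WT. The comparisons of 6 h with 0 h and of 24 h with 6 h share the 6 h libraries, so a high 6 h library enters both.

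Between the genotypes, EREG differed at 6 and 24 h and, in a call that rests on 1 ΔCRE library and was not stable, at 0 h. The other members differed by less or at 1 time only. At 6 h, 4 of 8 members passed, 2 higher in ΔCRE (EREG and NRG1) and 2 lower (HBEGF and ERRFI1), where 9.83% of features passed, 3.62% higher and 6.22% lower. At 24 h 2 of 8 passed, EREG and AREG, both higher, where 6.33% of features passed, 2.35% higher and 3.97% lower, or 265 and 447 features, which in TPM were 180 and 548. At 0 h EREG alone passed, where 1.69% of features did. The 3 comparisons have no library in common, but all ΔCRE libraries share the edit and may share a clone.

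The level of EREG at 6 h was 2.96 times higher in ΔCRE, 91.6 ± 13.4 FPKM against 30.9 ± 1.18 FPKM (SD, n = 2 each), with a log2 fold change of 1.53 (1.30 to 1.76, adjusted p = 1.1e-04, limma). At 24 h it was 48.8 ± 0.853 against 20.9 ± 0.371 FPKM (SD, n = 2 each), a ratio of 2.33 and a log2 fold change of 1.19 (0.96 to 1.41, adjusted p = 5.1e-04, limma). Both calls held in all alternatives that kept to the 11 libraries, with adjusted p at most 0.0126 and 0.0096. With all 12 libraries in 1 fit, the fold changes at 6 and 24 h are the same by construction, the standard error rises from 0.1001 to 0.397, and the adjusted p is 0.379 and 0.854.

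EREG at 0 h is the weakest of its 3 differences, since 1 ΔCRE library carries it. Replicate 2 held 1.63 times the WT mean, a log2 fold change of 0.67 (0.39 to 0.95, adjusted p = 0.038, limma). The call was lost in 8 of the 10 fits that left out 1 other library (adjusted p from 0.056 to 0.117), among them those without WT 0 h replicate 1 (0.57, adjusted p = 0.117) and without WT 0 h replicate 2 (0.77, adjusted p = 0.056). It was also lost without the filter, with TPM and with the groups compared alone (adjusted p = 0.069, 0.067 and 0.365). With the library labelled ΔCRE 0 h replicate 1 included, at 6.16 FPKM, the direction turned (log2 fold change −0.09, adjusted p = 0.881).

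HBEGF at 6 h was lower in ΔCRE, at 76.2% of WT, 118 ± 2.25 against 155 ± 0.0651 FPKM (SD, n = 2 each), with a log2 fold change of −0.39 (−0.51 to −0.26, adjusted p = 0.0040, limma). ERRFI1 was at 79.4% of WT, 304 ± 2.47 against 383 ± 11.03 FPKM (SD, n = 2 each; log2 fold change −0.33, adjusted p = 0.018, limma), and overlapped WT at 24 h, 436 ± 8.27 against 436 ± 13.1 FPKM (SD, n = 2 each). NRG1 was 1.24 times the WT level at 6 h, 91.7 ± 0.364 against 73.9 ± 3.37 FPKM (SD, n = 2 each; log2 fold change 0.31, adjusted p = 0.013, limma). The call of HBEGF was kept when each library was left out in turn. With all 12 libraries none of these 3 calls held (adjusted p = 0.415 for HBEGF), nor did that of AREG at 24 h (adjusted p = 0.379). That of ERRFI1 was lost without any 1 of the 4 libraries of 6 h (log2 fold change −0.36 to −0.30, adjusted p from 0.079 to 0.113). That of NRG1 was lost without WT 6 h replicate 1 (0.26, adjusted p = 0.108) and without ΔCRE 6 h replicate 1 or 2 (0.30 and 0.31, adjusted p = 0.061 and 0.070), and with the groups compared alone (0.31, adjusted p = 0.054).

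AREG at 24 h was 1.79 times the WT level, 8.05 ± 1.09 against 4.49 ± 0.219 FPKM (SD, n = 2 each), with a log2 fold change of 0.72 (0.39 to 1.04, adjusted p = 0.023, limma). Both ΔCRE libraries were above both WT libraries at 6 and at 24 h, but at 6 h the difference of 0.37 did not pass (adjusted p = 0.154, limma). The 24 h call was lost without any 1 of the 4 libraries of 24 h (log2 fold change 0.59 to 0.84, adjusted p from 0.065 to 0.127), with a pseudocount of 0.1, without the filter and with the groups compared alone (adjusted p = 0.070, 0.054 and 0.072). HBEGF at 24 h was at 87.8% of WT (log2 fold change −0.19, adjusted p = 0.092) and NRG1 at 115% (0.20, adjusted p = 0.083, limma).

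Both receptors that passed the filter were close between the genotypes, with differences that did not pass at any time. EGFR in ΔCRE was 1.08 times WT at 0 h, 1.05 times at 6 h, where the libraries overlapped, and 1.19 times at 24 h (log2 fold change 0.24, 0.053 to 0.427, adjusted p = 0.134, limma). For ERBB2 the 95% interval of the log2 fold change was −0.06 to 0.31 at 0 h, −0.10 to 0.20 at 6 h and −0.05 to 0.25 at 24 h. TGFA was at 81.1% of WT at 0 h and 85.0% at 6 h (log2 fold changes −0.28 and −0.21, adjusted p = 0.180 and 0.114, limma).

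Whether stimulation changed a member by a different amount in ΔCRE was tested as the difference of the changes. From 0 to 6 h none of the 8 members passed in limma, where 0.267% of features did, and 2 had an unadjusted p under 0.05. EREG rose by 0.86 more in ΔCRE on the log2 scale (0.50 to 1.22, unadjusted p = 5.2e-04, adjusted p = 0.109), and HBEGF by 0.29 less (adjusted p = 0.395). Without ΔCRE 6 h replicate 1 the difference of EREG was 1.01 and passed (adjusted p = 0.033). From 6 to 24 h none passed, where 0.16% of features did, and 4 had an unadjusted p under 0.05: ERRFI1 (0.33, adjusted p = 0.439), TGFA (0.25, adjusted p = 0.690), HBEGF (0.20, adjusted p = 0.664) and EREG (−0.34, adjusted p = 0.692). EREG was thus higher in ΔCRE at 6 and 24 h, while a larger rise in ΔCRE was not shown at this threshold. At 0 h its difference rests on 1 ΔCRE library and was not stable.

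**Figure D3:**
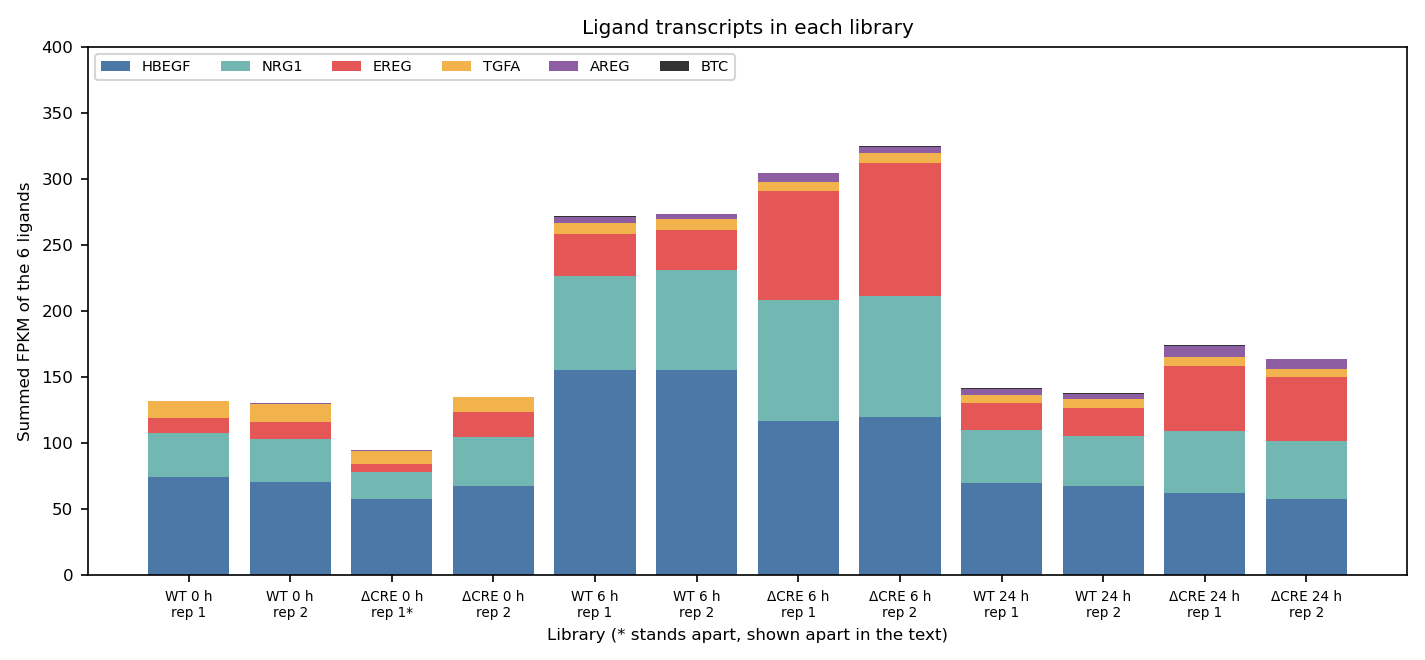
Stacked FPKM of the 6 ligands (vertical axis, from 0) in each of the 12 libraries, ordered by time and genotype, with the asterisk on the library labelled ΔCRE 0 h replicate 1. The sum lies between 130.5 and 135 FPKM at 0 h without that library and between 272 and 325 FPKM at 6 h, and the EREG block is widest in the ΔCRE libraries at 6 h.

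Summed over the 6 ligands, FPKM was 132 and 130.5 in WT and 135 in ΔCRE at 0 h, 272 and 274 in WT and 305 and 325 in ΔCRE at 6 h, and 141 and 137 in WT and 174 and 164 in ΔCRE at 24 h. The ligand pool was thus largest at 6 h in both genotypes, and the ΔCRE sums were above the WT sums at 6 and 24 h without overlap. HBEGF made up 56.6% and 57.1% of the pool in WT at 6 h and 36.9% and 38.3% in ΔCRE. EREG made up 10.996% to 11.7% in WT and 27.0% to 31.1% in ΔCRE at that time, and 14.6% to 15.4% against 28.4% to 29.5% at 24 h. NRG1 kept between 24.9% and 30.2% in all 11 libraries. TGFA shrank from 9.71% to 10.8% of the pool at 0 h in WT to 2.92% to 3.14% at 6 h. Among the 3 receptors, EGFR went from 59.6% to 61.1% of the summed FPKM at 0 h in WT to 74.2% to 74.9% at 6 h and 49.9% to 53.5% at 24 h, and in ΔCRE from 60.1% to 73.1% to 76.1% and then 52.5% to 56.5%. Shares of FPKM describe transcripts and not shed protein.

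EREG and AREG are neighbours on chromosome 4. On hg19 the annotation puts EREG at chr4:75230862-75254466, AREG at chr4:75310853-75320722 and BTC at chr4:75669969-75719733 on the opposite strand. In the table, the AREG row starts 80.0 kb after that of EREG. Within 5 Mb of EREG, 30 other tested features surround them. In ΔCRE against WT at 6 h, 3 of these passed, none higher and 3 lower, a share close to the 9.83% of all features, with a median log2 fold change of −0.0034 over the 30. The 3 were the chemokines CXCL1 (−0.65, adjusted p = 0.012) and CXCL3 (−0.46, adjusted p = 0.016), 0.496 and 0.329 Mb before EREG, and SHROOM3 (−0.50, adjusted p = 0.0079, limma), an actin-binding protein. At 24 h CXCL1 (−1.25), IL8 (−0.73) and SHROOM3 (−0.38) were lower and none was higher, where 6.33% of all features passed. CXCL1, CXCL3, IL8 and SHROOM3 were named after their values were seen, as the features of the window that passed. EREG and AREG were the features of this window that were higher in ΔCRE, AREG at 24 h alone.

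Among the other ligands and receptors of the family (ERBB4, EGF, EPGN, NRG2, NRG3 and NRG4), NRG2 alone of 6 was high enough to be tested. NRG2, a neuregulin, was 1.48 and 0.940 FPKM at 0 h, 0.720 and 0.687 FPKM at 6 h and 2.35 and 2.403 FPKM at 24 h in WT, and 0.408 FPKM, 0.460 and 0.392 FPKM, and 1.31 and 1.34 FPKM in ΔCRE. It fell by 0.37 at 6 h in WT and was lower in ΔCRE at 24 h by a log2 fold change of −0.54, and these calls were lost in 8 and 9 of 18 alternatives.

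Of 8 tested sheddases and their partners, 4 were higher and 1 was lower after 6 h in WT, where 44.4% of all features passed, with a list median of 0.43. Among the 5 proteases ADAM17 was higher, ADAM9 was lower and ADAM10, ADAM15 and FURIN did not pass, and the other 3 higher genes were partners. FRMD8 (1.30), RHBDF2 (0.94) and RHBDF1 (0.94), the partners that carry and stabilise ADAM17, were higher, as was ADAM17 itself (0.68), and ADAM9 fell by 0.32. ADAM17, the main sheddase of HBEGF, AREG, EREG and TGFA, was 10.3 and 11.1 FPKM at 0 h, 17.2 and 18.1 FPKM at 6 h and 14.8 and 16.7 FPKM at 24 h in WT. It did not pass between the genotypes at 6 h (0.12, adjusted p = 0.346, limma). In ΔCRE at 6 h, where 6.22% of all features were lower, 3 of 8 were lower and none higher (list median −0.14): ADAM15 (−0.63), RHBDF1 (−0.36) and FRMD8 (−0.29). ADAM15, a disintegrin metalloprotease, was 69.6 and 64.3 FPKM in WT and 45.0 and 40.7 FPKM in ΔCRE at 6 h, and was the 1 gene of the list that was lower at 24 h (−0.73). The calls of RHBDF1 and FRMD8 between genotypes were lost without WT 6 h replicate 1, WT 6 h replicate 2 or ΔCRE 6 h replicate 2. RHBDF1 at 6 h in WT was named after its value was seen, to complete the 4.

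Genes of receptor turnover and inhibition were mixed at 6 h in WT, 3 higher and 4 lower of 17 tested (list median −0.12), a share close to the 44.4% of all features. PTPN12, a phosphatase of the receptors (0.66), and CBL, the ubiquitin ligase that marks EGFR for degradation (0.44), were highest, and SOCS3 (−1.23) and the phosphatase PTPRJ (−0.98) lowest. Between genotypes PTPRJ alone was lower at 6 h (−0.24), a call lost in 13 of 19 alternatives, and none of 17 passed at 24 h. Of all features, 9.83% and 6.33% passed at those times. Adaptors and lipid kinases at the receptors were higher in 7 and lower in 1 of 16 tested in WT at 6 h (list median 0.09), a share also close to the 44.4% of all features, with the transcription factors STAT5A (2.18) and STAT3 (0.69) highest, and PIK3R3 (−0.94), a PI3-kinase subunit, and PIK3CA (0.22), a catalytic subunit, lowest among those called. The call of PIK3CA was lost in 7 of 19 alternatives, TPM among them. In ΔCRE 3 of 16 were lower and none higher at 6 h (STAT5A −0.99, PIK3R1 −0.52 and STAT3 −0.32, list median −0.04) and 3 of 16 at 24 h (STAT5A −0.71, GAB2 −0.40 and PLCG1 −0.27), where 9.83% and 6.33% of all features passed. STAT5A was 14.3 and 14.5 FPKM in WT and 6.98 and 6.55 FPKM in ΔCRE at 6 h. Its calls held in all 19 alternatives of the 11 libraries, whereas those of PIK3R1, STAT3, GAB2 and PLCG1 between genotypes were lost in 3 to 8 of 18 or 19.

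In the Ras and MAP kinase core, 2 were higher and 1 was lower of 10 tested in WT at 6 h (MAP2K1 0.62, HRAS 0.28 and MAPK3 −0.23, list median 0.10). The call of MAP2K1 held in all 19 alternatives, whereas that of HRAS was lost in 5, TPM and quantile normalization among them, and that of MAPK3 in 10. By limma, none of 10 passed between the genotypes at 6 or 24 h, where 9.83% and 6.33% of all features passed. Of the ERK-dependent output genes, 9 were higher and 1 was lower of 16 at 6 h in WT (list median 0.56). DUSP5, a phosphatase that acts on ERK (3.25), and the AP-1 subunit FOSL1 (2.16) were highest, SPRY2 (0.53) was the second lowest of those called and ETV5 (−0.51) the lowest. In ΔCRE at 6 h, 2 of 16 were higher (EGR1 0.93 and PHLDA1 0.24) and 2 lower (DUSP4 −0.32 and DUSP5 −0.25), with a list median of 0.0027 against 0.013 over all features. Of all features, 3.62% were higher and 6.22% lower there. At 24 h 6 were higher and 1 lower (list median 0.10 against 0.012), led by EGR1 (0.63) and DUSP6 (0.46), with SPRY4 (0.23) and DUSP5 (−0.24) lowest. Of all features, 2.35% were higher and 3.97% lower at that time. EGR1, an immediate early transcription factor, was 17.6 and 17.2 FPKM in WT and 33.5 and 34.5 FPKM in ΔCRE at 6 h, without overlap, and its call at 6 h held in all 19 alternatives. At 24 h it was lost in 3 of them and that of DUSP6 in 1, and the other named calls between genotypes in 3 to 11. Beside the 44.4% of all features called in WT at 6 h, shares of 10 of 16 for these genes and 3 of 10 for the kinase core are a description of the lists.

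**Figure D4:**
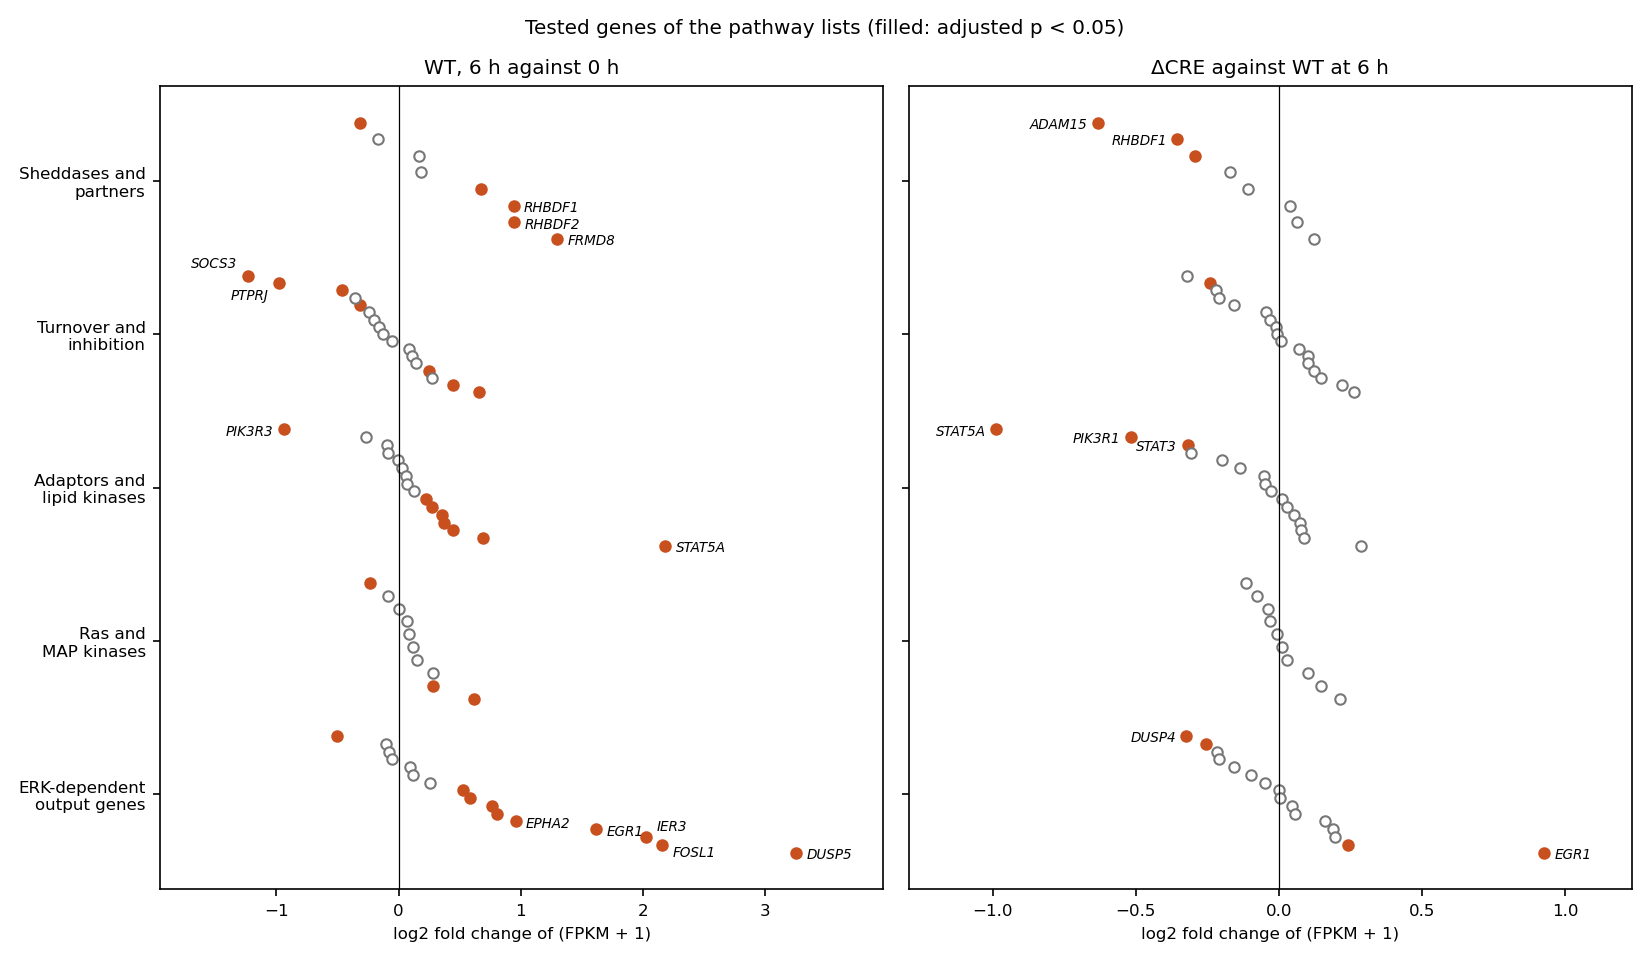
Log2 fold change of (FPKM + 1) (horizontal axes) of the tested genes in 5 pathway lists, for 6 h against 0 h in WT (left) and ΔCRE against WT at 6 h (right), ordered within each list. Filled points passed an adjusted p of 0.05. DUSP5 at 3.25 and STAT5A at 2.18 lie furthest to the right on the left, and STAT5A at −0.99 and EGR1 at 0.93 at the ends on the right.

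The features whose pattern over the 11 libraries was most like that of each member were found by Pearson's r of log2(FPKM + 1), for the 6 members whose group means spanned at least 1. The points share libraries and the 6 groups, so high values are common. TNFRSF10D (r = 0.990), ISG20L2 and ARL16 were nearest to HBEGF, and MFSD2A (r = 0.993), ALG2 and TXNRD1 to NRG1. KYNU (r = 0.990), INHBA and TMEM208 were nearest to AREG. EREG had no feature as near, with PLIN2 (r = 0.974), FHL2 and LOC201651 first. TM4SF1 (r = 0.997), IL32 and HLA-E were nearest to ERRFI1.

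In the library labelled ΔCRE 0 h replicate 1, the receptors were unlike those of any other library. EGFR was 1.98 FPKM, 9.96% of the WT 0 h mean, whereas ERBB2 was 52.0 FPKM and ERBB3 44.5 FPKM, 4.31 and 42.8 times the WT 0 h means. These ratios are of FPKM as deposited and would be smaller for ERBB2 and ERBB3 after rescaling. Summed FPKM was 1423335 in this library, against 600054 and 566255 in WT at 0 h. ERBB2 and ERBB3 were above, and EGFR, HBEGF, EREG, NRG1, BTC and ERRFI1 below, all other 11 libraries. HBEGF was 57.5 FPKM, NRG1 20.4 FPKM, TGFA 9.70 FPKM, EREG 6.16 FPKM, AREG 0.517 FPKM, BTC 0.0599 FPKM and ERRFI1 24.4 FPKM. With this library included, the change of EGFR at 6 h in ΔCRE was 2.01 on the log2 scale in place of 0.55 (adjusted p = 0.118) and that of ERBB2 was −1.28 in place of −0.33 (adjusted p = 0.125, limma). The gut epithelium markers given above move with these values, and their part in them was not tested.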

How the data were processed

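The series holds RNA-sequencing of MDA-MB-231 cells, WT or ΔCRE, taken at 0, 6 or 24 h after addition of PMA/Ionomycin. Each group has 2 replicates, which the study calls biological. The authors made stranded mRNA libraries. They used TopHat 2.0.12 for mapping to hg19 and Cufflinks 2.2.1 for quantification, and the values they deposited are FPKM. The gene annotation is not given in the sources used here. Depth is unknown, so no counting interval was computed. Column names of ΔCRE 0 h and 6 h replicate 2 hold a digit in place of a letter and were matched to the only labels left.

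A feature was tested if its FPKM averaged 1 or more over 11 libraries, which 11256 of 24331 did. The test was limma 3.58.1 with trend in R 4.3.3 on log2(FPKM + 1), in 1 model of 6 groups, with Benjamini-Hochberg adjustment over all features. The script was tested on simulated data. Other steps used Python 3.11.15. Members, pathway lists and comparisons were chosen with earlier results of these data known. From each list, the 2 highest and 2 lowest log2 fold changes among called genes are named, and for likeness the 3 features with the highest r. The features most like TGFA are not reported here. Alternatives were all 12 libraries, a smaller pseudocount (0.1), a filter at 5 FPKM or none, TPM, quantile normalization, the replicate number as a block, no trend, the groups compared alone, a fold change of at least 2 and each library left out. The 2-fold limit was applied to numbers of called members and features only, and is not among the alternatives counted for single genes. Alternatives on genes of the pathway lists were chosen after seeing the data.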

Additional observations from a re-analysis of the deposited data

Results flagged for a closer look

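The library labelled ΔCRE 0 h replicate 1, which the comparisons do not use, held 3 members above both WT 0 h libraries, which served as controls. ERBB2 was 52.0 FPKM there, against 12.4 and 11.8 FPKM. ERBB3 was 44.5 FPKM, against 1.09 and 0.985 FPKM. AREG was 0.517 FPKM, against 0.216 and 0.395 FPKM, a difference close to the spread between the WT libraries. Summed FPKM was 1423335 in that library, against 600054 and 566255 in the WT 0 h libraries. The order given for AREG is that of FPKM as deposited, without rescaling to these sums. No member's change differed between the genotypes by limma's test at an adjusted p of 0.05, and none moved one way in every WT library and the other way in every ΔCRE library.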

How the results depend on the processing

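Depth is unknown, so the counting error of low levels such as AREG at 0 h could not be given. At 0 h ΔCRE rests on 1 library. Of 43 called member values, 31 were called under every alternative of the 11 libraries in which they were tested, and 17 with all 12. The 2-fold limit is not among the alternatives of this count. Cause was not tested unless named.

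With 12 libraries, members called were 5 at 6 h and 3 at 24 h against 0 h in WT, 1 from 6 to 24 h in WT, 2 from 6 to 24 h in ΔCRE and 0, 0 and 0 between genotypes at 0, 6 and 24 h, as standard errors grew, and EREG at 0 h reversed to −0.087. With a fold change of at least 2, which asks for more by construction, they were 5, 3 and 1 in WT (6 h, 24 h, 6 to 24 h), 4 and 0 in ΔCRE, and 0, 1 and 1 between genotypes. With the groups compared alone, they were 5 in ΔCRE at 6 h (EGFR, ERBB2 and TGFA lost), and 0, 3 and 1 between genotypes at 0, 6 and 24 h. Without the filter they were 0 at 0 h and 1 at 24 h, with TPM 0 at 0 h, with a pseudocount of 0.1 or a mean FPKM of at least 5 (AREG not tested) 1 at 24 h, and with quantile normalization 4 at 24 h. Leaving out 1 library gave 7 to 8, 4 to 6 and 6 to 7 in WT, 8 and 6 to 7 in ΔCRE, 0 to 1, 2 to 4 and 1 to 2 between genotypes, and 0 to 1 for the difference in the change to 6 h. Without ΔCRE 0 h replicate 2 its comparisons could not be fitted.

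Deviations of same-numbered libraries correlated at −0.0676 to 0.202 over 10 pairs of groups. A shift shared by all features does not enter such a correlation, so it cannot decide whether replicate numbers pair the samples. With the replicate number as a block, 4 members were called between genotypes at 24 h, HBEGF and NRG1 added, and 655, 1805 and 1407 features at 0, 6 and 24 h against 190, 1107 and 712. HBEGF at 24 h also passed with TPM (−0.21) and quantile normalization (−0.23).

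Features called in WT (6 h against 0 h, 24 h against 0 h, 24 h against 6 h), in ΔCRE (6 h against 0 h, 24 h against 6 h), between genotypes (0, 6, 24 h) and for the differences of the changes (0 to 6 h, 6 to 24 h) were 4993, 6151, 5267, 3359, 5586, 190, 1107, 712, 30 and 18, and with 12 libraries 903, 1285, 636, 1085, 911, 17, 32, 19, 5 and 0. With at least 2-fold they were 423, 555, 314, 395, 357, 37, 60, 39, 22 and 3. With the groups compared alone, features called were 1320 in ΔCRE at 6 h, 43, 364 and 132 between genotypes and 9 for the difference from 6 to 24 h. The difference to 6 h gave 47 features without the filter and 72 with the block, and that from 6 to 24 h gave 11 with quantile normalization and 8 without trend. Leaving out 1 library gave 106 to 156, 325 to 1108 and 165 to 710 between genotypes, and 3 to 21 for the difference from 6 to 24 h. TPM moved the median log2 fold change of all features to −0.117 in WT and −0.128 in ΔCRE at 6 h, and no called member changed direction.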
